A study of Mus musculus with 18 samples.

Results

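The genes described here are the mitochondrial carriers and the protein import machinery of mouse oocytes. They were chosen by name: every protein-coding gene whose symbol begins with Slc25a, Timm or Tomm followed by a digit, with gene identifiers matched to the GENCODE vM21 annotation. In all, 67 of the 27874 genes in the table met this rule, of which 44 were Slc25a, 15 Timm and 8 Tomm genes. Levels are in FPKM, fragments scaled to exon length and sequencing depth. A level is thus a share of its library and not an amount per oocyte, and a fall or rise below is one of this share. Of the 67, 43 reached at least 1 FPKM in at least 3 of 18 libraries and were tested, and 24 did not.

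Nearly all mitochondrial proteins are made in the cytosol and must cross the mitochondrial membranes. Precursors enter through the TOM complex of the outer membrane, and those with a presequence go on through the TIM23 translocase of the inner membrane. Small TIM chaperones of the intermembrane space hand hydrophobic proteins, the metabolite carriers among them, to the TIM22 translocase. The Slc25a carriers then exchange ADP and ATP, phosphate, carboxylates, amino acids, cofactors and metals across the inner membrane. Oocytes depend on mitochondrial ATP, and during meiotic maturation they transcribe little, so that levels of maternal mRNA follow storage, polyadenylation and decay.

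The 18 libraries came from wild-type mice (WT) and from Lsm14b-/- mice (KO), which lack a protein that binds mRNA in ribonucleoprotein particles of the cytoplasm. Germinal vesicle oocytes (GV), metaphase I oocytes (MI) and oocytes collected 14 h past the injection of human chorionic gonadotropin, labelled MII, were sampled, with 3 libraries in each of 6 groups and 15 oocytes in each library. The labels do not say whether every KO oocyte at the last time had reached metaphase II, nor whether the 3 libraries of a group came from separate animals, so p-values measure the spread between these libraries. The cDNA was primed with oligo(dT), and a transcript with a short poly(A) tail may be under-represented. In libraries of pooled oocytes, fewer oocytes with a transcript and less of it per oocyte cannot be told apart.

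The depth inferred from the FPKM values was 14227767 to 17183695 reads per library. For a gene of 1 kb a single read was thus worth 0.0582 to 0.0703 FPKM. Lsm14b itself stood at 2.57, 2.28 and 2.04 FPKM in WT at GV, 11.2, 4.99 and 5.01 at MI and 9.80, 10.8 and 7.42 at MII. In KO it stood at 0.114, 0.234 and 0, at 0.126, 0.121 and 0.126, and at 0.106, 0.0214 and 0.211, below every WT library. The summed level of 12 oocyte markers was at least 15750 FPKM in every library. The sum was 29970 to 34010 in WT against 19710 to 26620 in KO at GV. At MI it was 20940 to 27090 in WT against 20990 to 23380 in KO. At MII the sum was 21000 to 23560 in WT against 15750 to 17430 in KO. That of 14 cumulus and granulosa cell markers was 5.50 to 12.8 FPKM, and 8 of the 14 (Amh, Cyp11a1, Foxl2, Has2, Inhba, Ptgs2, Ptx3 and Tnfaip6) stayed under 1 FPKM in every library. The sum of the 14 was 5.50 to 9.75 FPKM in WT GV and 9.36 to 12 in KO GV. Of 7 blood cell markers found, 6 stayed under 1 FPKM in every library. The other, Lyz2, stood at 27.5 FPKM in WT MI replicate 2 against 0.315 and 0.199 in the other WT MI libraries. In KO MII replicate 3 it stood at 4.69, against 0 and 0.0470 in the other KO MII libraries. The sum of 8 markers of theca, stroma and endothelium was 2.35 to 6.86 FPKM. The part of such cells in the results was not tested. KO GV replicates 2 and 3 lay furthest from their group, with deviations of SD 0.52 and 0.48 on the log2 scale against at most 0.33 elsewhere. The tested carrier and import genes had a median deviation of 0.25 in the former and -0.25 in the latter.

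A few of these genes made up most of the signal. In WT at GV the highest was Timm9, which encodes a small TIM chaperone (173 ± 35.1 FPKM, SD, n = 3 here and below). Next came Timm17a, a core subunit of TIM23 (168 ± 24.8), Slc25a31, the ADP/ATP carrier of the germ line (134 ± 15.3), and Slc25a17, a peroxisomal carrier of coenzyme A and other cofactors (83.1 ± 7.63). The 3 libraries of Timm17a overlapped in level with those of both Timm9 and Slc25a31. Tomm22, a receptor of the TOM complex, was the fifth (41.4 ± 2.82). At MII the order in WT had changed: Slc25a31 (95.6 ± 16.2) and Slc25a17 (78.7 ± 5.98) led, Timm9 stood in place 8 and Timm17a in place 23. In KO at MII the leading 3 were Slc25a31 (171 ± 31.3), Timm9 (124 ± 35.5) and Slc25a17 (82.2 ± 13.2). Summed over all 67 genes, the level was 916 ± 93.6 FPKM in WT at GV and 489.9 ± 38.7 at MII, and 789.9 ± 71.2 and 684.7 ± 60.5 in KO. The Timm genes alone went from 467 ± 76.9 to 118 ± 21.2 FPKM in WT and from 326 ± 63.4 to 191 ± 46.7 in KO.

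**Figure D1:**
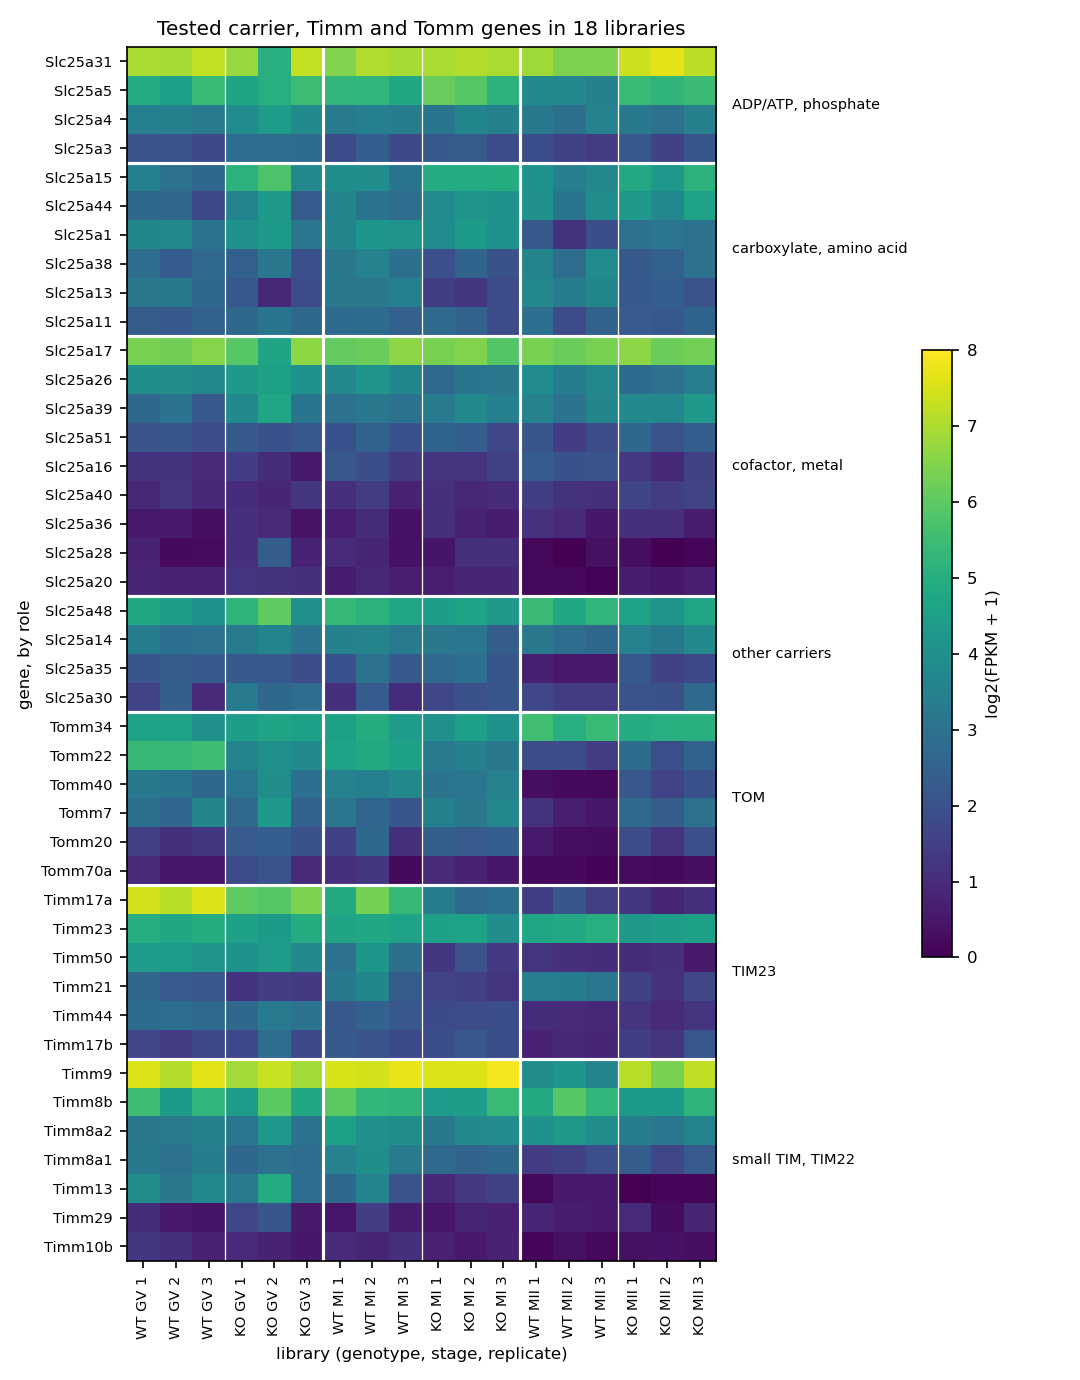
Level of the tested genes reported here (rows, grouped by role) in each of the 18 libraries (columns), as log2(FPKM + 1) on the colour scale. Slc25a31 and Slc25a17 are bright in nearly every library, whereas Timm17a, Tomm22, Timm50 and Timm13 darken from GV to MII and Timm9 darkens at MII in WT.

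The 24 untested genes included partners of tested ones. Timm10, which joins Timm9 in a chaperone hexamer, had 0 to 4 reads per library. Timm22, the channel of the carrier translocase, reached at most 0.457 FPKM and Tomm5, a small TOM subunit, at most 0.682. Slc25a46, an outer membrane protein of mitochondrial fission, stood at 0.267 to 1.01 FPKM. Carriers of other tissues, such as Slc25a37 (mitoferrin of red cell precursors), Slc25a18 (a glutamate carrier) and Slc25a47 (a liver carrier), stayed under 0.11 FPKM in every library.

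Between GV and MII in WT, the level of several import genes fell to a small part of its value at GV. Of the 43 tested genes 17 fell and 6 rose, or 23 called, in a comparison in which 57.7% of all genes tested were called (28.8% fell and 28.9% rose). Their median log2 change was -0.23, and over all genes tested it was 0.09. Of the import genes, 12 of 19 Timm and Tomm genes fell and 3 rose, with a median of -0.91. Of the carriers, 5 of 24 fell and 3 rose, with a median of -0.19. The difference between these counts was not tested. With quantile normalization or TPM scaling 10 rose and 17 fell.

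Timm17a showed the largest change. Its 3 libraries held 174, 141 and 189.7 FPKM at GV, 28.0, 79.3 and 39.7 at MI and 1.80, 3.39 and 1.89 at MII in WT. Each stage lay below the one before with no overlap (log2 difference -5.68, SE 0.31, adjusted p = 7.36e-11 by limma, Benjamini-Hochberg). From GV to MI in WT it was the only one of the 43 that was called (log2 difference -1.88, SE 0.31, adjusted p = 0.00358), where 4.82% of all genes were called (2.75% higher and 2.06% lower). Without KO GV replicate 2 or 3 or WT MI replicate 2 or 3, 4, 5, 2 and 3 genes were called in that comparison. Tomm22 stood at 40.1, 39.4 and 44.6 FPKM at GV and 2.56, 2.73 and 1.71 at MII (log2 difference -3.68, SE 0.23, adjusted p = 4.57e-10). Timm9 stood at 185, 134 and 201 FPKM at GV, 184, 176 and 211 at MI and 14.3, 17.3 and 11 at MII. The MI libraries overlapped those at GV, and all MII libraries lay below both (log2 difference -3.52, SE 0.26, adjusted p = 3.01e-09 for MII against GV).

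Other genes that fell from GV to MII in WT encode subunits of TOM and TIM23 and small TIMs. Timm50, the presequence receptor of TIM23, went from 19.1 ± 2.24 to 1.15 ± 0.137 FPKM, and Timm44, which tethers the import motor, from 6.07 ± 0.362 to 0.957 ± 0.0488. Timm13, a small TIM, went from 11.6 ± 3.19 to 0.370 ± 0.208. Tomm40, the channel of the TOM complex, went from 7.12 ± 1.59 to 0.174 ± 0.0579, and Tomm7, a small TOM subunit, from 7.83 ± 3.33 to 0.766 ± 0.440. Each of these 5 kept its call in all 29 alternative analyses. Among carriers, Slc25a1, the citrate carrier, went from 10.9 ± 3.04 to 2.59 ± 1.27 FPKM.

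The 6 that rose were Timm21, Timm8a2, Tomm34, Slc25a16, Slc25a38 and Slc25a44. Tomm34, a cytosolic co-chaperone of import rather than a membrane subunit, went from 20.7 ± 4.94 to 39.2 ± 7.08 FPKM (log2 difference 0.90, SE 0.23, adjusted p = 0.00311). Slc25a44, a carrier of branched-chain amino acids, went from 4.35 ± 1.77 to 12.4 ± 4.28, and its call was lost without WT GV replicate 3 (adjusted p = 0.0651, against 0.00172 to 0.0651 over all alternatives). Timm21, a TIM23 subunit that contacts the TOM complex, went from 4.21 ± 0.881 to 9.04 ± 1.07. Slc25a38, a glycine carrier of haem synthesis, had overlapping groups (5.38 ± 1.24 and 10.4 ± 3.78) and lost its call in 14 of 29 alternatives, 10 of them with 1 library left out (any WT GV library, KO GV replicate 1, WT MI replicate 1, KO MI replicate 1 or 3, WT MII replicate 1 or 3, or KO MII replicate 2), with an adjusted p of 0.0109 to 0.188 over all alternatives. Timm8a2, a small TIM, went from 9.21 ± 1.15 to 16.2 ± 2.09 FPKM and lost its call without WT GV replicate 1 or 2 or WT MII replicate 1 or 2 (adjusted p = 0.0670 to 0.10, against 0.00540 to 0.10 over all alternatives).

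The 3′ ends of these mRNAs were searched for a short element. Cytoplasmic polyadenylation in maturing oocytes acts on mRNAs with a U-rich cytoplasmic polyadenylation element (CPE) close to the AAUAAA signal that directs cleavage. In the last 100 bases of the 3′ UTR (sense strand, 1 transcript per gene, GENCODE vM21 on GRCm38), the CPE letters TTTTAT or TTTTAAT were present in 1 of the 17 genes that fell in WT from GV to MII and in 3 of the 6 that rose. Over all tested protein-coding genes they were present in 9.70% of 2362 that fell, 29.4% of 2701 that rose and 20.3% of 8509 in all. A match is a description of letters, and TTTTAAT can overlap AATAAA. The following 30-base windows end at the signal of 5 genes that fell, with the signal AATAAA in capitals and no CPE letters in the last 100 bases.
Timm9: agaaaaagtttattactaaaagtaAATAAA
Timm17a: actgtgatatggaagtggaaactgAATAAA
Timm50: tctggactccttgtgtgctgtagaAATAAA
Tomm7: ttctgtattttgttttggcctttaAATAAA
Slc25a1: tctcaggaccaccttgccaaggagAATAAA
The next windows hold the CPE letters, in capitals, of the 3 genes that rose and of Slc25a5, the 1 gene that fell with such a match.
Tomm34: tgaactgaTTTTATtgaagtgtgtgttgct
Slc25a44: ttaaaagtTTTTATtgagcccc
Slc25a16: aagtaattTTTTATccttg
Slc25a5: attatattTTTTATttcagtcactcctgat
The CPE letters began 48, 14, 11 and 58 bases before the annotated transcript end. In Tomm34 and Slc25a5 they began 27 and 38 bases ahead of the signal. In Slc25a44 and Slc25a16 they lay after the start of the signal ATTAAA, and no CPE letters preceded it in the window. Neither AATAAA nor ATTAAA was found in the last 100 bases of Tomm22, Tomm40, Slc25a35 and Timm13, which also fell. The median 3′ UTR was 747 bases in the 17 genes that fell and 1160 in the 6 that rose, against 479 for all tested protein-coding genes that fell and 1475 for all that rose.

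Promoter sequences were searched for motifs as well. RefSeq promoters (GRCm38.p6, 250 bases before to 50 after the start) matched 36 of the 43 tested genes. The ETS motif CCGGAAG, searched on both strands, was present in 36.1% of them and in 22% of 6819 tested genes. The core motif of NRF1, a factor of many mitochondrial genes, was also searched on both strands and was present in 11.1% and in 12.8%.

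KO oocytes differed from WT in 12 of the 43 genes at GV, in 10 at MI and in 14 at MII. At GV 8 were higher and 4 lower in KO, in a comparison in which 20.8% of all genes were called (13.3% higher and 7.49% lower). At MI 1 was higher and 9 lower, against 17.3% of all genes called (3.63% higher and 13.7% lower). At MII 11 were higher and 3 lower, against 28.6% of all genes called (14.9% higher and 13.8% lower). Median log2 differences of the 43 were 0.14, -0.12 and 0.18, against 0.17, -0.13 and 0.01 for all genes. In all, 26 of the 43 genes were called at 1 stage or more, and 17 at none. Shares of all genes called at 1 stage or more, or at every stage, were not computed. Whether these counts exceed the usual was thus not tested. Slc25a13 and Timm21 were lower at every stage, no gene was higher at every stage, and Tomm22 was lower at GV and MI and higher at MII. By unadjusted p under 0.05, limma gave 16, 14 and 22 genes, with no share of all genes computed at that threshold. Voom on recovered reads, with adjustment, gave 11, 10 and 14.

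The counts at GV and MI depended on single libraries. At GV the count was 5 without WT GV replicate 3, 7 without KO GV replicate 1 or 2, and 19 without KO GV replicate 3, and only 2 genes, Tomm22 and Timm17a, passed when just the GV groups were fitted. At MI it was 6 without WT MI replicate 2, the library with the highest Lyz2 level, or KO MI replicate 1. With median-of-ratios or quantile scaling 4 genes were higher and 9 lower at MI. Those scalings moved the median of all genes at GV from 0.17 to -0.05 and 0.02, and at MI from -0.13 to 0.02 and 0.03. No called difference changed sign in any alternative.

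**Figure D2:**
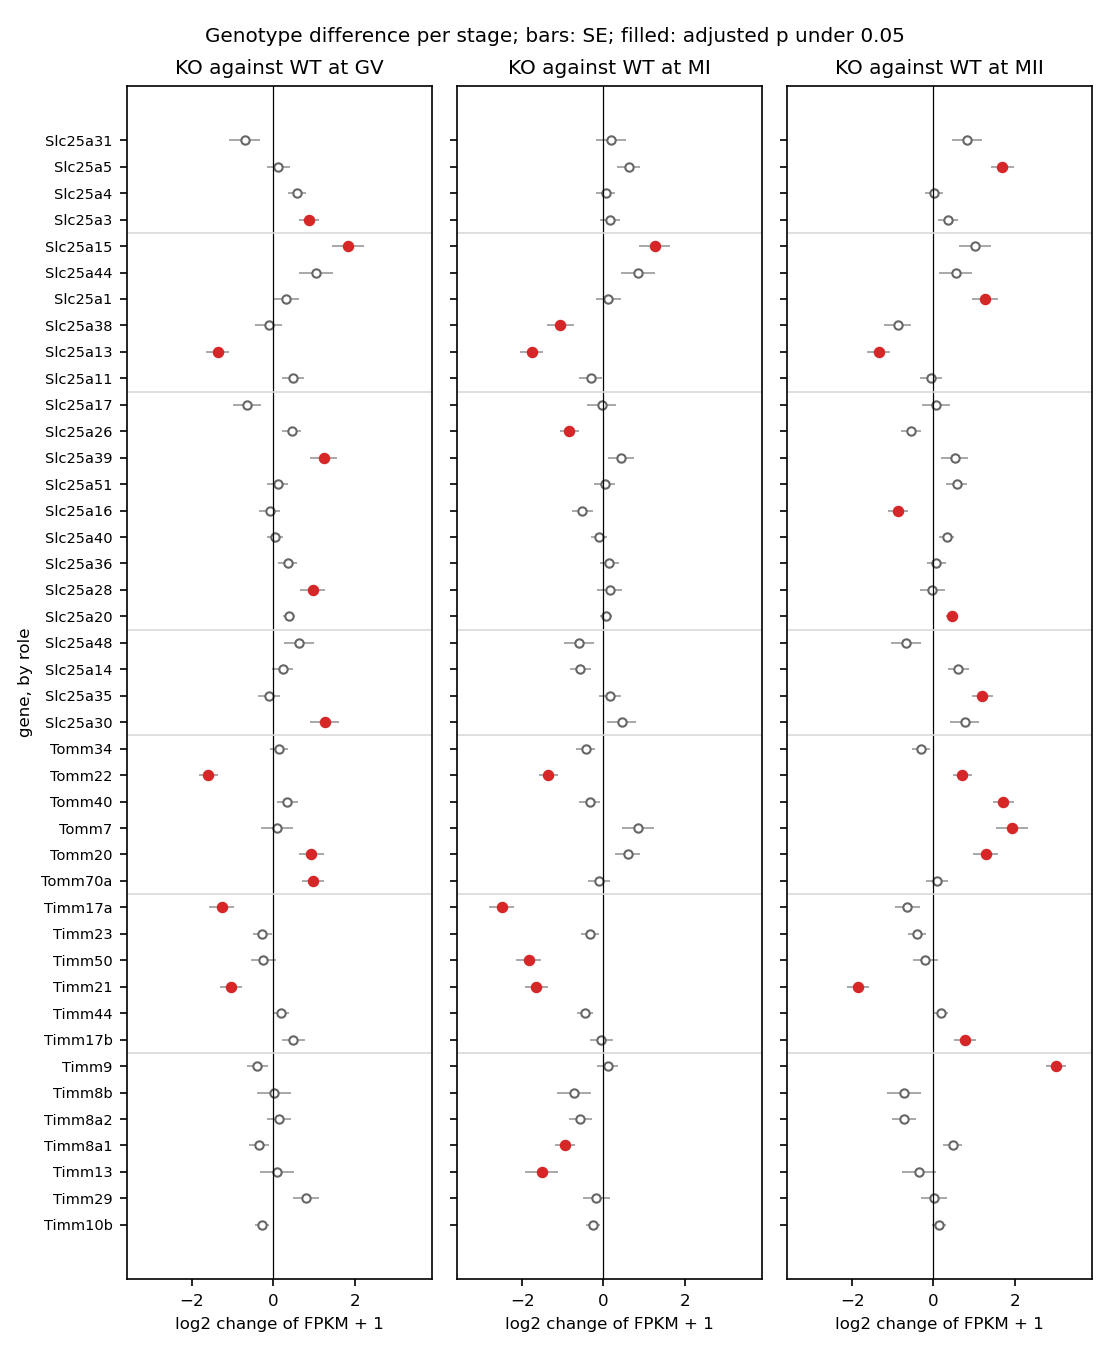
Difference between KO and WT in log2(FPKM + 1) for the tested genes reported here (rows, by role) at GV, MI and MII, with bars of 1 SE. Filled points passed an adjusted p of 0.05. At MI only Slc25a15 among them lies to the right, and at MII Timm9 lies furthest to the right.

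In the TOM complex, Tomm22 was lower in KO at GV and MI, and 4 subunits were higher at MII. Of the 6 Tomm genes tested, the cytosolic Tomm34 included, 2 were higher and 1 lower in KO at GV, and 0 and 1 at MI. At MII 4 were higher and 0 lower. Over all genes the shares were 13.3% higher and 7.49% lower at GV, 3.63% and 13.7% at MI, and 14.9% and 13.8% at MII. The median log2 difference of the 6 at MII was 1.00 against 0.01 for all genes. Tomm22 (GRCm38 chromosome 15, 79670861 to 79673400, plus strand) encodes a central receptor. At GV it stood at 40.1, 39.4 and 44.6 FPKM in WT against 10.9, 15.1 and 13.1 in KO. At MI the values were 23.9, 27.8 and 23.0 in WT against 8.84, 10.3 and 8.27 in KO. All KO libraries lay below all WT libraries at both stages, with log2 differences of -1.61 and -1.35 (SE 0.23, adjusted p = 0.000198 and 0.000600), and both calls held in all 29 alternatives. At MII the values were 2.56, 2.73 and 1.71 FPKM in WT against 6.10, 2.83 and 4.84 in KO (log2 difference 0.71, SE 0.23, adjusted p = 0.0273). There the lowest KO library lay just above the highest WT library. That call was lost without WT MII replicate 3, KO MII replicate 1 or KO MII replicate 3 (adjusted p = 0.0854 to 0.154, against 0.00585 to 0.154 over all alternatives).

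Tomm40 and Tomm7 did not differ by the test at GV or MI and were higher in KO at MII. Tomm40 (chromosome 7, 19701313 to 19715438, minus strand) stood at 0.237, 0.162 and 0.123 FPKM in WT at MII, from 18, 12 and 9 reads, and at 3.51, 2.11 and 3.05 in KO. The ratio of the group means was 16.6 (log2 difference 1.71, SE 0.26, adjusted p = 7.44e-05). Tomm7 (chromosome 5, 23838944 to 23844161, minus strand) stood at 1.27, 0.594 and 0.437 FPKM in WT against 5.87, 4.18 and 6.90 in KO (log2 difference 1.92, SE 0.39, adjusted p = 0.00122). The groups of both genes were separate, and both calls held in all 29 alternatives. Tomm20, the receptor for presequences, stood at 0.508, 0.223 and 0.201 FPKM in WT against 2.52, 1.32 and 2.90 in KO at MII (log2 difference 1.28, SE 0.31, adjusted p = 0.00387). At GV it stood at 1.46 ± 0.373 in WT against 3.69 ± 0.656 in KO, a call that was lost without any 1 of 5 of the 6 GV libraries, all but KO GV replicate 3 (adjusted p = 0.0544 to 0.118, against 0.00926 to 0.118 over all alternatives). A processed copy of Tomm20, Gm14494, is 99.5% identical over the aligned stretch and was counted at 4.08, 3.41 and 4.36 FPKM in KO and 1.23, 0.559 and 0.424 in WT at MII, so reads may be split between the pair. Tomm70a, the receptor for carrier precursors, stood at 0.923, 0.387 and 0.409 FPKM in WT against 2.56, 3.15 and 0.953 in KO at GV, and this call was lost without WT GV replicate 2 or 3 or KO GV replicate 1 or 2 (adjusted p = 0.0652 to 0.0936, against 0.000933 to 0.120 over all alternatives). Tomm34 was called at no stage between genotypes.

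In the TIM23 translocase, 3 of 6 subunits were lower in KO at MI, where 13.7% of all genes were lower. The median of the 6 there was -1.05 against -0.13 for all genes. At GV 2 were lower, against 7.49% of all genes. At MII 1 was higher and 1 lower, against 14.9% and 13.8% of all genes. Timm17a (chromosome 1, 135295213 to 135313778, minus strand) stood at 174, 141 and 189.7 FPKM in WT against 65.1, 58.3 and 84.4 in KO at GV. At MI it stood at 28.0, 79.3 and 39.7 in WT against 9.31, 5.65 and 6.61 in KO. The KO libraries lay below the WT libraries at both stages (log2 difference -1.27, SE 0.31, adjusted p = 0.00970 at GV, and log2 difference -2.50, SE 0.31, adjusted p = 3.23e-05 at MI), and both calls held in all 29 alternatives. At MII both genotypes were low, at 1.80, 3.39 and 1.89 in WT against 1.43, 0.783 and 1.14 in KO FPKM, and the difference did not pass (log2 difference -0.64, SE 0.31, adjusted p = 0.133). The copy Gm7180, 96.3% identical to Timm17a over the aligned stretch, had means of 49.0 FPKM in WT and 20.5 in KO at GV and 14.5 and 2.03 at MI. Timm17b, the paralog on chromosome X, stood at 2.13 ± 0.387 FPKM in WT against 3.71 ± 2.22 in KO at GV. At MII Timm17b stood at 0.742, 0.903 and 0.770 in WT against 1.79, 1.33 and 3.52 in KO, a call that was kept in 12 of the 28 alternatives that gave a value (adjusted p = 0.0108 to 0.231 over them) and lost without any WT GV, WT MII or KO MI library, WT MI replicate 2, or KO MII replicate 1 or 3. The ratio of Timm17a to Timm17b was 75.9 to 83.3 in the WT GV libraries, 9.29 to 35.0 in KO GV, 2.42 to 3.75 in WT MII and 0.324 to 0.799 in KO MII.

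Timm50 stood at 6.89, 17.7 and 6.72 FPKM in WT against 1.47, 3.10 and 1.49 in KO at MI, with no overlap (log2 difference -1.83, SE 0.31, adjusted p = 0.000470), while at GV the means were 19.1 ± 2.24 in WT against 16.2 ± 3.84 in KO. WT MI replicate 2 was the WT library with the highest level of both Timm50 and Timm17a at MI. The same library held 27.5 FPKM of the blood cell marker Lyz2. Without this library, as in all 29 alternatives, both genes kept their call at MI. The part of blood cells in these differences was not tested. Timm21 was lower in KO at every stage. It stood at 5.20, 3.9 and 3.53 FPKM in WT against 1.26, 1.75 and 1.58 in KO at GV, and at 8.34, 11.8 and 4.12 in WT against 2.03, 1.86 and 1.29 in KO at MI. At MII it stood at 9.74, 9.57 and 7.81 in WT against 1.91, 1.22 and 2.23 in KO (log2 difference -1.86, SE 0.27, adjusted p = 6.04e-05). The groups did not overlap at any stage. The call at GV was lost without WT GV replicate 1 or KO GV replicate 1 (adjusted p = 0.0549 to 0.0597, against 0.000451 to 0.0674 over all alternatives), and those at MI and MII held in all 29. Timm23, the channel subunit, was called at no stage between genotypes, with group means of 20.3 to 28.9 FPKM, and Timm44 was not called either.

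**Figure D3:**
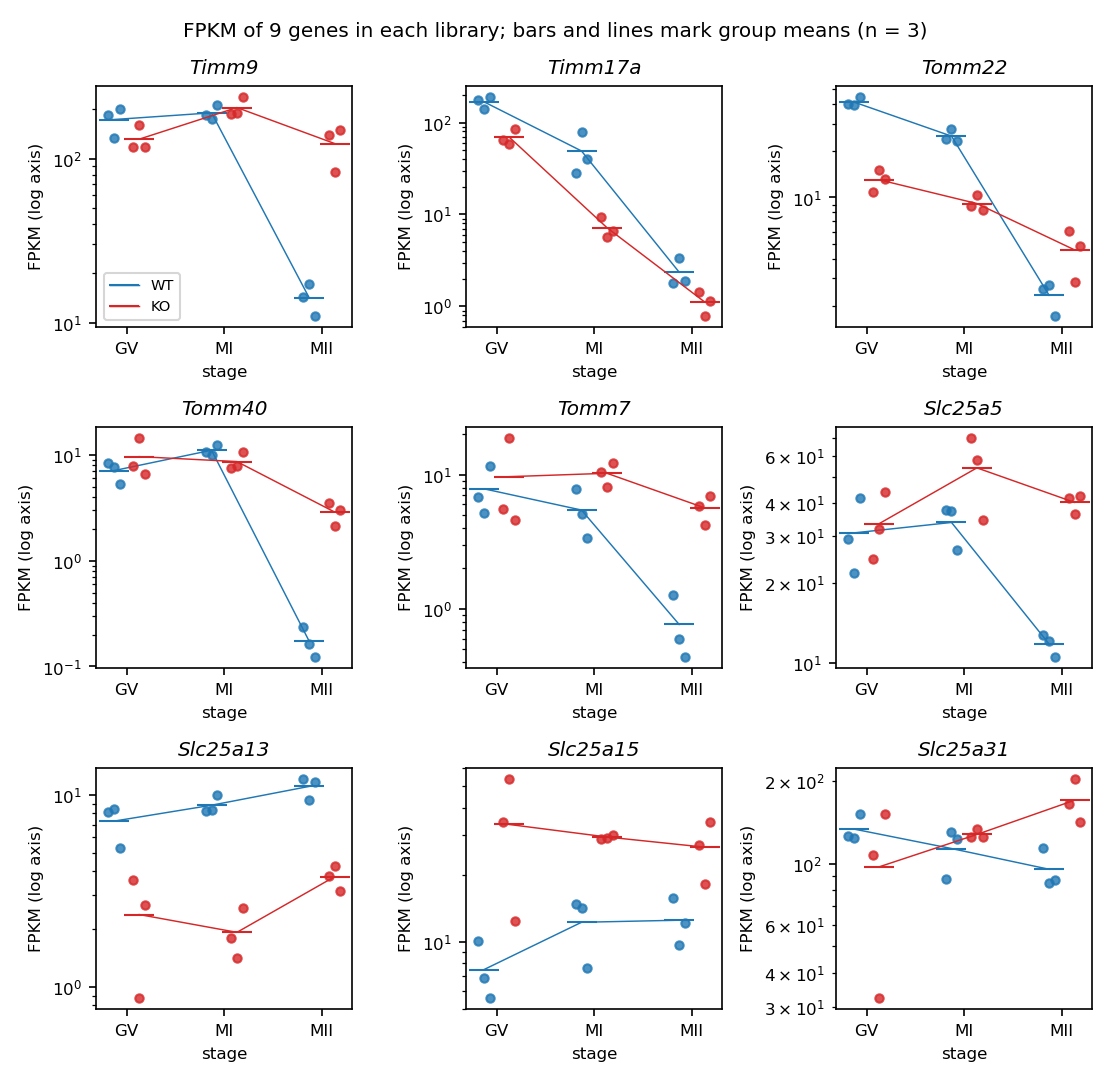
Level in FPKM (log axis) of 9 genes in each library by stage, with WT in blue and KO in red. Points are libraries, short bars are group means of 3 libraries, and lines join the means. Timm9 stays between 83.1 and 149 FPKM in KO at MII and lies between 11 and 17.3 in WT, and the Tomm22 lines cross between MI and MII.

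Among the small TIMs, Timm9 was higher in KO at MII, with the largest difference of the 43 genes at that stage on the log2(FPKM + 1) scale, although Tomm40 had the larger ratio of group means. Timm9 (chromosome 12, 71123173 to 71136684, minus strand) stood at 185, 134 and 201 FPKM in WT against 117, 160.0 and 117 in KO at GV. At MI it stood at 184, 176 and 211 in WT against 187, 190.2 and 238 in KO. The groups overlapped at both stages and neither difference passed. At MII it stood at 14.3, 17.3 and 11 in WT, from 764 to 1219 reads, and at 139, 83.1 and 149 in KO. The lowest KO library lay far above the highest WT library, with a ratio of the group means of 8.71 (log2 difference 3.01, SE 0.26, adjusted p = 1.79e-07), and the call held in all 29 alternatives. Timm13 and Timm8a1, whose products are partners in another small TIM chaperone complex, were lower in KO at MI. Timm13 stood at 5.58, 11 and 3.14 FPKM in WT against 0.886, 1.53 and 1.90 in KO, and Timm8a1 at 10.8, 15 and 8.64 in WT against 5.77, 4.83 and 5.54 in KO. Neither pair of groups overlapped, but both calls were lost without WT MI replicate 2 (adjusted p = 0.110 for Timm13 and 0.0706 for Timm8a1), and Timm13 also without KO MI replicate 1 (0.0695). Over all alternatives the adjusted p was 0.00160 to 0.110 and 0.00670 to 0.0706. Timm8b, Timm8a2, Timm29 and Timm10b were called at no stage between genotypes. Overlapping exons of other genes make up 22.1% of the exon length of Timm10b and 15.6% of that of Timm8b, and the strand of the libraries is not stated in the sources used here.

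Of the 4 tested ADP/ATP and phosphate carriers, Slc25a5 was higher in KO at MII and Slc25a3 at GV. Slc25a5 (chromosome X, 36795651 to 36798807, plus strand) encodes the ADP/ATP carrier of proliferating cells. At MII it stood at 12.8, 12.1 and 10.5 FPKM in WT against 41.9, 36.3 and 42.5 in KO, without overlap (log2 difference 1.69, SE 0.29, adjusted p = 0.000219). At GV and MI its groups overlapped (30.9 ± 10.0 in WT against 33.5 ± 9.79 in KO at GV, 33.8 ± 6.24 in WT against 54.3 ± 18.1 in KO at MI). Slc25a31, its germ line paralog, was the most abundant of the 3 ADP/ATP carriers in every library, although KO GV replicate 2 held only 32.4 FPKM, against 31.9 of Slc25a5, and the other 2 KO GV libraries 108 and 152. The ratio of Slc25a31 to Slc25a5 was 7.08 to 8.93 in the WT MII libraries and 3.34 to 5.62 in the KO MII libraries. Slc25a31 was called at no stage between genotypes. It rose in KO from GV to MII (log2 difference 1.04, SE 0.37, adjusted p = 0.0347), with overlapping groups, and lost this call without KO GV replicate 2 or KO MII replicate 1 or 2 (adjusted p = 0.0750 to 0.219, against 0.00206 to 0.219 over all alternatives). Slc25a3, the phosphate carrier, stood at 3.27, 3.30 and 2.41 FPKM in WT against 6.4, 6.37 and 6.13 in KO at GV (log2 difference 0.88, SE 0.24, adjusted p = 0.0183). It was no longer called without WT GV replicate 3 or KO GV replicate 1 (adjusted p = 0.0507 to 0.0817, against 0.0115 to 0.0901 over all alternatives).

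Carriers of carboxylates and amino acids moved in both directions. Slc25a13 (chromosome 6, 6041218 to 6217173, minus strand), the aspartate/glutamate carrier citrin of the malate-aspartate shuttle, was lower in KO at every stage. It stood at 8.16, 8.41 and 5.31 FPKM in WT against 3.60, 0.873 and 2.66 in KO at GV, and at 8.21, 8.29 and 9.99 in WT against 1.79, 1.41 and 2.57 in KO at MI. At MII it stood at 12.1, 9.41 and 11.7 in WT against 3.78, 4.28 and 3.17 in KO. Every KO library lay below every WT library of its stage, with log2 differences of -1.37, -1.76 and -1.35 (SE 0.28, adjusted p = 0.00323, 0.000310 and 0.00143). The call at GV was lost when only the GV groups were fitted (adjusted p = 0.0870, the highest over its alternatives). Its paralog Slc25a12 was untested, at 0.201 to 0.708 FPKM.

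Slc25a15, the ornithine carrier of the urea cycle, was higher in KO at GV and MI. At GV it stood at 10.0, 6.86 and 5.58 FPKM in WT against 34.6, 53.8 and 12.4 in KO, where KO GV replicate 2, a library that deviated from its group, was the highest (log2 difference 1.84, SE 0.39, adjusted p = 0.00415). This call was lost when only the GV groups were fitted (adjusted p = 0.0827, the highest over its alternatives). At MI it stood at 14.8, 14.2 and 7.66 in WT against 29.0, 29.3 and 30.2 in KO, without overlap. That call was lost without any 1 of 5 of the 6 MI libraries, all but WT MI replicate 1 (adjusted p = 0.0599 to 0.130, against 0.00179 to 0.130 over all alternatives). At MII it was not called, although the groups did not overlap either. It stood there at 15.8, 9.63 and 12.1 in WT against 27.1, 18.1 and 34.5 in KO. Slc25a1 stood at 3.73, 1.23 and 2.80 FPKM in WT against 6.97, 7.87 and 6.94 in KO at MII, with all KO libraries above (log2 difference 1.27, SE 0.32, adjusted p = 0.00544). Slc25a38 was lower in KO at MI, at 8.13, 10.7 and 6.82 in WT against 2.85, 5.02 and 3.00 in KO FPKM, and its call was lost without WT MI replicate 1 or 2 or KO MI replicate 1 or 3 (adjusted p = 0.0646 to 0.137, against 0.0131 to 0.137 over all alternatives). Slc25a44 and Slc25a11, the oxoglutarate/malate carrier, were not called.

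Among 10 tested carriers of cofactors, nucleotides, carnitine and metals, 3 were higher in KO at GV, 1 lower at MI, and 2 higher and 1 lower at MII. Over all genes the shares were 13.3% higher at GV, 13.7% lower at MI, and 14.9% higher and 13.8% lower at MII. Slc25a39, which carries glutathione, stood at 5.54, 7.26 and 3.70 FPKM in WT against 13.3, 25.6 and 7.72 in KO at GV. Its lowest KO library lay just above the highest WT library, and the call (log2 difference 1.24, SE 0.33, adjusted p = 0.0150) was lost without WT GV replicate 3 or KO GV replicate 2 (adjusted p = 0.0816 to 0.0860, against 0.000735 to 0.137 over all alternatives). Slc25a26, the carrier of S-adenosylmethionine, stood at 12, 16.9 and 11.8 in WT against 5.58, 7.55 and 8.19 in KO at MI (log2 difference -0.84, SE 0.24, adjusted p = 0.0183). It lost this call without WT MI replicate 2 or KO MI replicate 1 (adjusted p = 0.0910 to 0.0950, against 0.0117 to 0.0950 over all alternatives). Slc25a16 was lower in KO at MII (3.46 ± 0.483 in WT against 1.47 ± 0.586 in KO FPKM), a call lost without WT MII replicate 1 or KO MII replicate 2 (adjusted p = 0.0564 to 0.0794, against 0.00139 to 0.0794 over all alternatives). Slc25a20, the carnitine/acylcarnitine carrier, and Slc25a28, a mitoferrin, were called at means under 2 FPKM, Slc25a20 at MII and Slc25a28 at GV, and kept the call in 20 of 27 and 20 of 28 alternatives that gave a value. Slc25a20 stood at 0.108 ± 0.0387 FPKM in WT against 0.511 ± 0.0863 in KO, and Slc25a28 at 0.362 ± 0.327 in WT against 1.96 ± 1.87 in KO, where the groups overlapped. The call of Slc25a20 was lost without any WT MII library or KO MII replicate 1 or 3, and that of Slc25a28 without WT GV replicate 2 or 3 or KO GV replicate 2. Over all alternatives the adjusted p was 0.000772 to 0.0925 for Slc25a20 and 0.00335 to 0.204 for Slc25a28. Slc25a17, the most abundant of this group, was called in no comparison.

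Of the 4 tested carriers of other or unknown substrates, Slc25a35 was higher in KO at MII (0.645, 0.463 and 0.502 FPKM in WT against 3.61, 1.92 and 2.30 in KO) and Slc25a30 at GV (2.12, 4.38 and 0.999 in WT against 8.91, 5.45 and 6.30 in KO). Neither pair of groups overlapped (log2 difference 1.21, SE 0.27, adjusted p = 0.00229 for Slc25a35, and log2 difference 1.27, SE 0.36, adjusted p = 0.0209 for Slc25a30). The call of Slc25a30 was lost without WT GV replicate 1 or 3 or KO GV replicate 1 (adjusted p = 0.0533 to 0.117, against 0.00946 to 0.117 over all alternatives). Exons of Rangrf cover 31.3% of those of Slc25a35. Slc25a48, the most abundant carrier of the group, and Slc25a14 were not called.

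The log2 change from GV to MII was higher in KO than in WT for 5 genes. In KO 14 of the 43 genes fell from GV to MII and 2 rose, or 16 called, against 37.2% of all genes called (25.4% fell and 11.9% rose). With quantile normalization 12 fell and 6 rose. The comparisons of KO with WT and those of MII with GV share libraries. The difference between the genotypes in the change from GV to MII passed for Timm9, Tomm22, Slc25a5, Tomm40 and Slc25a35. All had a higher log2 change in KO, where 5.61% of all genes passed (3.88% in this direction and 1.73% in the other). Timm9 changed by -3.52 in WT against -0.12 in KO, a difference of 3.40 (SE 0.36, adjusted p = 3.29e-05). Tomm22 changed by -3.68 and -1.36, a difference of 2.32 (SE 0.33, adjusted p = 0.000464) that also holds the lower KO level at GV. These 2 calls held in all 29 alternatives.

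The other 3 of these calls were lost in several alternatives. The differences were 1.57 for Slc25a5, 1.37 for Tomm40 and 1.32 for Slc25a35 (adjusted p = 0.0303, 0.0351 and 0.0476). Slc25a5 and Tomm40 each lost the call without WT GV replicate 1, KO GV replicate 1, any WT MII library, or KO MII replicate 1 or 3. Slc25a5 also lost it without WT GV replicate 3, and Tomm40 without WT GV replicate 2. All 3 were lost with no filter, Tomm40 and Slc25a35 with a pseudocount of 5, and Tomm40 when only the groups compared were fitted. Slc25a35 lost it without any 1 of the 9 WT GV, WT MII and KO MII libraries, KO GV replicates 1 and 2, or KO MI replicates 1 and 2. The adjusted p without 1 library reached 0.0777, 0.0974 and 0.123, and over all alternatives it was 0.00586 to 0.0787, 0.000411 to 0.337 and 0.00321 to 0.127. Leaving out 1 library gave 2 to 15 such genes in all, with 15 without KO GV replicate 3. The count was 3 without WT GV replicate 2 or 3, and 2 without WT GV replicate 1, KO GV replicate 1, any WT MII library, or KO MII replicate 1 or 3.

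Timm17a, Timm44, Timm50 and Timm13 fell from GV to MII in both genotypes, and none of the 4 passed the test of the difference. Timm17a changed by -5.68 in WT against -5.05 in KO, and Timm50 by -3.22 and -3.18. From GV to MI in KO, 6 genes fell and 0 rose, against 13% of all genes called (10.4% fell and 2.53% rose). They were Timm17a, Timm44, Timm50, Timm13, Slc25a26 and Tomm70a, and with quantile normalization 8 fell and 1 rose. Tomm70a kept this call in 11 of the 28 alternatives that gave a value (adjusted p = 0.00330 to 0.172 over them) and lost it without KO GV replicate 1 or 2 or any KO MI, WT MII or KO MII library. Without KO GV replicate 3 the count was 12. Timm50 went from 16.2 ± 3.84 to 2.02 ± 0.936 FPKM in KO (log2 difference -2.53, SE 0.31, adjusted p = 1.99e-05) and from 19.1 ± 2.24 to 10.4 ± 6.29 in WT. None of the 43 passed the limma test of the difference between genotypes in the change from GV to MI. Of all genes 0.0775% passed, 0.00969% with a higher and 0.0678% with a lower log2 change in KO. At an unadjusted p under 0.05 there were 11 of the 43, all with a lower log2 change in KO. The share of all genes at that threshold was not computed. The median log2 difference was -0.58 for the 43 genes and -0.32 for all genes. Voom on recovered reads gave 0, and 6 passed without KO GV replicate 3.

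**Figure D4:**
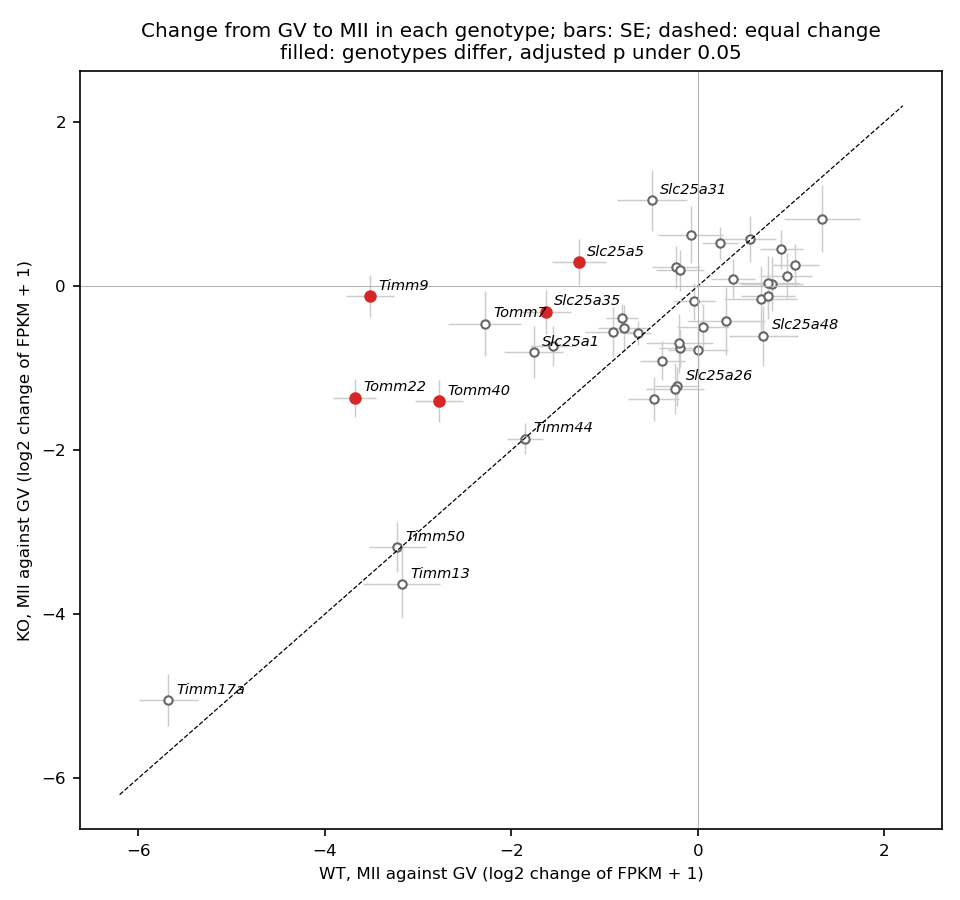
Change in log2(FPKM + 1) from GV to MII in WT (horizontal axis) and in KO (vertical axis) for the tested genes reported here, with bars of 1 SE and a dashed line of equal change. Filled points are the 5 genes whose change differed between genotypes, all above the line, and Timm50 and Timm44 lie close to it. The axes share GV and MII libraries with the comparisons of KO with WT.

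Other genes of mitochondrial import, from a list of chaperones, processing peptidases and outer membrane factors, were described in the same way. Of 26 such genes, 22 were tested. In KO against WT, 3 were higher and 0 lower at GV, 0 higher and 2 lower at MI, and 8 higher and 0 lower at MII, where 14.9% of all genes were higher and 13.8% lower. Over all genes 13.3% were higher at GV and 13.7% lower at MI. From GV to MII in WT 14 fell and 3 rose, against 28.8% and 28.9% of all genes. Mtx2, which encodes metaxin 2 of outer membrane protein assembly, stood at 11.9, 8.09 and 9.81 FPKM in WT against 36.2, 49.7 and 47.3 in KO at MII (log2 difference 2.05, SE 0.25, adjusted p = 7.53e-06). Dnaja1, a cytosolic co-chaperone of HSP70, stood at 48.1, 60.2 and 50.5 in WT against 111, 125 and 136 in KO, and Mipep, the mitochondrial intermediate peptidase, at 5.41, 7.28 and 4.46 in WT against 20.3, 14.0 and 17.4 in KO. Hspe1, the matrix co-chaperonin HSP10, stood at 39.6, 46.9 and 38.5 in WT against 94.1, 80.9 and 132 in KO, and Gfer, the sulfhydryl oxidase that drives import of small TIMs, at 6.21, 4.11 and 5.51 in WT against 15.8, 11.7 and 22.6 in KO. In all 5 the KO libraries lay above the WT libraries at MII. These 5 were named by smallest p, a choice that favours separate groups, so the separation is no further result.

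Of 14 carriers and channels outside the naming rule, 5 were tested, and 1 of them, Vdac2, was lower in KO at every stage. Over all genes 7.49% were lower at GV, 13.7% at MI and 13.8% at MII. Vdac2 is a porin of the outer membrane. It stood at 19.8, 14.8 and 19.6 FPKM in WT against 3.33, 3.65 and 4.71 in KO at GV, and at 13.8, 15.4 and 13.6 in WT against 3.23, 2.60 and 2.37 in KO at MI. At MII it stood at 6.80, 7.19 and 5.24 in WT against 2.22, 1.23 and 2.18 in KO. No KO library reached the lowest WT library of its stage, and the log2 differences were -1.96, -2.04 and -1.37 (SE 0.22, adjusted p = 1.31e-05, 5.34e-06 and 0.000114).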

How the data were processed

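The deposited table gives FPKM per gene for 18 libraries of 15 oocytes, made by the authors from oligo(dT)-primed Smart-seq2 cDNA, per the labels' protocols. Of the build and tools, the submitters' processing notes list mm10 and DESeq2 1.38.3. What else was used (aligner, counter, annotation, strand) is not given in the sources used here. In 93.95% of genes the FPKM values gave whole reads, within 0.1 read, in every library.

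The 10320 genes that reached 1 FPKM in 3 libraries or more were compared with limma 3.58.1 in R 4.3.3 on log2(FPKM + 1), a scale that understates changes of low genes. All 6 groups shared 1 fit with 12 residual degrees of freedom and a mean-variance trend, p-values were adjusted over all tested genes by Benjamini-Hochberg, and a gene was called under 0.05. The 29 alternatives comprised 11 settings (pseudocount, filter, scaling, groups fitted, a minimum fold of 2, replicate block, voom on recovered reads) and the omission of each of 18 libraries. The method was tested on simulated data only for KO against WT at MII, with the same spread per gene in all groups. That test does not cover the calls at GV or MI. Copies were sought with blastn 2.17.0. Genes called between genotypes, with separate groups and a mean of at least 5 FPKM, are given library by library, the rest by counts or means. From each other list at most 5 are named, by smallest p. Members and lists were chosen with earlier results of these data known. Results of 1 tested gene are counted in the totals and not reported here.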

Additional observations from a re-analysis of the deposited data

Results flagged for a closer look

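The change from GV to MII differed between KO and WT oocytes for 5 of the 43 tested genes by the limma interaction test, adjusted over all genes. In each case the log2 change was higher in KO than in WT. Of all genes tested, 5.61% passed, 3.88% in this direction and 1.73% in the other. The differences on the log2(FPKM + 1) scale were 3.40 for Timm9 and 2.32 for Tomm22, both called in all 29 alternatives. They were 1.57 for Slc25a5, called in 20 alternatives, 1.37 for Tomm40, called in 17, and 1.32 for Slc25a35, called in 13.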

How the results depend on the processing

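No called direction reversed in any alternative. For KO against WT at GV (12 genes called), no filter gave 7, fitting only the groups compared 2, a 2-fold minimum 7, and leaving out 1 library 5 to 19. Leaving out 1 library gave 6 to 11 at MI (10 called) and 11 to 18 at MII (14 called). For WT from GV to MI (1 called), a pseudocount of 5 gave 3, median-of-ratios scaling 5, quantile normalization 4, and leaving out 1 library 1 to 5. For WT from GV to MII (23 called), a 2-fold minimum gave 15 and leaving out 1 library 19 to 26. In KO, leaving out 1 library gave 5 to 12 from GV to MI (6 called) and 13 to 21 from GV to MII (16 called). For the genotype difference from GV to MI (0 called) it gave 0 to 6. For that from GV to MII (5 called), a pseudocount of 5 gave 3, no filter 3, median-of-ratios scaling 8 and leaving out 1 library 2 to 15. The cause of these shifts was not tested. Same-numbered WT and KO libraries did not deviate together (r from -0.17 to 0.36 over 9 pairs), so the replicate numbers were not taken as pairing. At GV, r was 0.41 for WT replicate 2 with KO replicate 1 and -0.43 for WT replicate 1 with KO replicate 3. Pairing by other numbers was not tested. With the replicate block the counts were 12, 10 and 13 for KO against WT at GV, MI and MII, 2 for WT from GV to MI, 22 for WT from GV to MII, 6 and 16 in KO, and 0 and 3 for the genotype differences, where Tomm40 and Slc25a35 lost the call. At an inferred 14227767 to 17183695 reads per library, the 24 untested genes did not reach 1 FPKM in at least 3 libraries. Some still had reads in a group, which the main fit did not use. At MII Slc25a23 had 9, 8 and 11 reads in WT against 56, 21 and 51 in KO. Slc25a24 had 12, 6 and 10 in WT against 0, 0 and 0 in KO. Other scalings moved the median log2 change of all genes by over 0.1 in several comparisons: for WT from GV to MI from 0.24 to -0.04 (median-of-ratios) and 0.04 (quantile), for WT from GV to MII from 0.09 to 0.26 (quantile) and 0.21 (TPM), and for KO from GV to MII from -0.07 to 0.09 and 0.22 (median-of-ratios and quantile).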
